A study of Mus musculus with 2 samples.

Results

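The S100 genes S100a8, S100a9, S100a4, S100a6, S100a10 and S100a11 were followed through the single-cell RNA sequencing of tumor-associated neutrophils (TANs). These 6 members were found by symbol among the 31053 genes of the count matrix, where each has 1 row, and the matrix lists 17 genes of the family. The cells were sorted as CD11b+Ly6G+ from subcutaneous tumors of Lewis lung carcinoma (LLC), a line of mouse lung carcinoma cells, grown in C57BL/6 mice aged 8 to 12 weeks, of both sexes per the methods. Smad3-WT mice (Smad3+/+) were compared with Smad3-KO mice (Smad3-/-), in which exon 8 of Smad3 is deleted and exon 7 disrupted in every cell of the host. The allele belongs to the mice, and the same LLC line was injected into both genotypes. Tumors were pooled, 8 per genotype, into 1 library each. With 1 library per genotype there is no replicate error, so no test of genotype was possible, and every interval below, printed in parentheses after its value, is exact, has a level of 95% and covers the counting error of UMIs alone. The comparison asks how loss of Smad3 in the host changes TANs.

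S100 proteins are small calcium sensors with EF-hand motifs that mostly act as dimers. S100A8 and S100A9 pair to form calprotectin, which fills the cytosol of neutrophils, binds zinc and manganese, and acts outside the cell as an alarmin through receptors such as TLR4. S100A10 forms a complex with annexin A2, S100A11 binds annexin A1, S100A4 binds nonmuscle myosin, and S100A6 is found in many dividing and mesenchymal cells.

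All 6 members lie on chromosome 3 of the mouse genome, build mm10, as protein-coding genes in GENCODE release M21. In order along the chromosome these are S100a4 (chr3:90603771-90606045), S100a6 (chr3:90612882-90624181), S100a8 (chr3:90668978-90670035), S100a9 (chr3:90692632-90695721), S100a11 (chr3:93520488-93526287) and S100a10 (chr3:93555080-93564643). S100a9 is on the minus strand and the other members are on the plus strand. A processed pseudogene of S100a11, S100a11-ps on chromosome 12, has no row in the matrix, and how reads of sequence shared with it were counted was not tested. The promoters of both calprotectin genes, whose levels moved together across cell classes, and of S100a6 and S100a11, the other members abundant in neutrophil-like cells, are shown to let their sequences be compared. Each runs from 250 bases before to 50 bases after the start of the gene (RefSeq, GRCm38.p6), 5′ to 3′ along the strand of the gene, and capitals mark TATAAA and the Smad-binding core CAGAC, searched on both strands and printed as GTCTG where it lies on the other strand. Of the 6 members, 5 matched the table of promoters, all but S100a10.
S100a8: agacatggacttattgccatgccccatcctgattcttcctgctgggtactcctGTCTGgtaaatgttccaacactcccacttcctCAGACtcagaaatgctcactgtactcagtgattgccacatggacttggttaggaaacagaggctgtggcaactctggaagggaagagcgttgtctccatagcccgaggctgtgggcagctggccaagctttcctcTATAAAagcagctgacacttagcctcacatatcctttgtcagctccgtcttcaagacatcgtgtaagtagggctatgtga
S100a9: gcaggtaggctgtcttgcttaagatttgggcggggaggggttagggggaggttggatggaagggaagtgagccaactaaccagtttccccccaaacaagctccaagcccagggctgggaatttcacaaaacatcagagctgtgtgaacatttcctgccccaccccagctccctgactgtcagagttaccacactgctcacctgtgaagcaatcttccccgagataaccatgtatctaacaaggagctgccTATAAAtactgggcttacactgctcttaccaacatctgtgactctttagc
S100a6: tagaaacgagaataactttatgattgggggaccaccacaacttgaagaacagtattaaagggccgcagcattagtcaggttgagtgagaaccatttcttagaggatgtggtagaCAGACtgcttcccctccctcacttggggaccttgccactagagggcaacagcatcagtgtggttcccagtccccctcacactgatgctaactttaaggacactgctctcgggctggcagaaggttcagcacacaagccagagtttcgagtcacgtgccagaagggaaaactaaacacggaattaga
S100a11: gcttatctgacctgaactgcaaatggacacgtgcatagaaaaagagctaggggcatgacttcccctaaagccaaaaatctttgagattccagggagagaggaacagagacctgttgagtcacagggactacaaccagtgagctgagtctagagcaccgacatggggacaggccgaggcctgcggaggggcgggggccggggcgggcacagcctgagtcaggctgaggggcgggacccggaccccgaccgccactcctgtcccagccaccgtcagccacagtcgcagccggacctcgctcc
These windows are chr3:90668821-90669120 for S100a8, chr3:90695672-90695971 for S100a9 on the minus strand, chr3:90612644-90612943 for S100a6 and chr3:93520246-93520545 for S100a11. Both calprotectin genes hold TATAAA, which begins 30 bases before the start in S100a8 and at the start itself in S100a9, whereas S100a6 and S100a11 do not hold these letters in the window. TATAAA is present on at least 1 strand of 13.6% of 32851 promoters of this length. The RefSeq start of S100a8 lies 93 bases downstream of the gene start in GENCODE given above, that of S100a9 coincides with it, and positions are counted from the RefSeq start. CAGAC occurs at 2 positions in S100a8 and at 1 in S100a6, and it was not found in the windows of S100a9 and S100a11. CAGAC occurs in 49.6% of all promoters, so that a match is common. The AP-1 letters TGANTCA occur at 2 positions in S100a11, which 7.81% of promoters hold at least once, and the C/EBP letters TTGCNNAA at 1 position in S100a9, which 10.8% hold. GAGGAA, the core bound by PU.1, occurs at 2 positions in S100a8, of which 1 shares a base with a CAGAC match, and at 1 in S100a11, and 28.3% of promoters hold it. S100a4, not printed, holds TATAAA at 1 position, CAGAC at 2 and GAGGAA at 1. A match of letters is a description of the sequence and not a site shown to be bound.

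The Smad3-WT library held 4116 barcodes and the Smad3-KO library 2514, of which 3520 and 2433 passed the quality filter, with 12176201 and 4146792 UMIs and medians of 1318.5 and 1199 UMIs per cell. The labels do not say which barcode suffix marks which library, so each suffix was assigned through the authors' average per library, which its summed UMIs matched to within 3.58e-08 for all 19114 genes of that table. Of the barcode sequences, 73 occurred in both libraries, and 24 Smad3-WT and 46 Smad3-KO cells with such a barcode passed the filter. Cell classes were built without any S100 gene, so that no member defines the cells in which it is described, and "like" marks a name given from marker genes. The methods also filtered the sorted cells by the neutrophil markers S100a9, S100a8, Csf3r and Il1rn, which include members. That step was not applied here, so the counts below are not those of the authors. Neutrophil-like cells were 1865 of the Smad3-WT cells (53.0%) and 1249 of the Smad3-KO cells (51.3%), although both libraries were labelled as neutrophils. The remaining cells were macrophage or monocyte-like (1216 and 134), LLC carcinoma-like (313 and 24), T or NK-like (53 and 416), B cell-like (5 and 504), fibroblast-like (46 and 67) and dendritic-like (22 and 39). Most neutrophil-like cells of the libraries lay in different clusters. Cluster 1, led by G0s2, Il1r2 and H2-Q10, held 1844 Smad3-WT and 164 Smad3-KO cells. Cluster 3, led by the immune response genes Il1a, Tnfaip3, Lcn2 and Csf3, held 21 and 1027, and cluster 9, led by the granule genes Camp, Ngp and Ltf of neutrophil precursors, held 0 and 58. The name precursor rests on 5 markers in cluster 9. Elane and Mpo, also on the list of precursor markers, had 0 UMIs in neutrophil-like cells of both libraries. Clusters 3 and 9 came almost wholly from Smad3-KO, so a state of the cells and a property of the library cannot be told apart in them. Smad3 itself had 14.6 CPM, meaning UMIs per 1000000 UMIs of the cells in question, in the Smad3-WT and 77.4 CPM in the Smad3-KO library, but the tags of a 5′ kit come from the beginning of transcripts, far from the deleted exon, and are no check of genotype. Ly6g, which encodes the antigen of the sort, was 21.8 and 145 in neutrophil-like cells on the same scale.

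All levels below are in CPM. A 5′ kit yields 1 tag per transcript, so the length of a gene does not enter when genes are compared. In neutrophil-like cells, S100a8 and S100a9 were the 4th and 3rd most abundant of all genes in either library. The level of S100a8 was 32331 (32068 to 32596) in Smad3-WT and 31985 (31717 to 32254) in Smad3-KO neutrophil-like cells. The level of S100a9 was 32944 (32678 to 33211) and 37392 (37102 to 37683), respectively. Thus the intervals of S100a8 overlapped, while S100a9 was higher in the Smad3-KO library by a factor of 1.14 (1.12 to 1.15). Both genes together took 6.53% of all UMIs of the class in Smad3-WT (6.49 to 6.56) and 6.94% in Smad3-KO (6.90 to 6.98). The KO/WT ratio of the pair, that is the Smad3-KO level over the Smad3-WT level, was 1.06 (1.05 to 1.07). It was 0.791 without the precursor-led cluster 9, 0.988 without the quality filter and 0.908 with 30 principal components. With S100 genes kept in the clustering it was 1.02. In the unchanged class it was 0.998 with cells thinned to equal depth and 1.002 as a mean over cells. Some alternatives raised it, up to 1.90 in cluster 1 alone. The direction of this ratio therefore rests on how the class is drawn, and its excess over 1 also moves with how cells are weighted.

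The clusters differed far more from each other than the class averages did. In the precursor-led cluster 9, S100a8 reached 138831 (136922 to 140759) and S100a9 120751 CPM. These 58 of 2433 Smad3-KO cells supplied 35.6% of the S100a8 UMIs and 26.4% of the S100a9 UMIs of that library. Cluster 9 had no Smad3-WT cell, and S100a8 exceeded S100a9 in it, with 0.870 S100a9 UMIs per S100a8 UMI (0.852 to 0.888). In cluster 3 of the Smad3-KO library the levels were 18933 for S100a8 and 26239 for S100a9, and the order of the genes was the opposite, with 1.39 S100a9 UMIs per S100a8 UMI (1.36 to 1.41). Cluster 1 was the neutrophil-like cluster with over 50 cells of both libraries. There the level of S100a8 stood at 32361 for Smad3-WT and 56750 for Smad3-KO, and its KO/WT ratio was 1.75 (1.71 to 1.80). S100a9 had 33004 and 67579, and its KO/WT ratio was 2.05 (2.002 to 2.094). At resolution 1 the largest neutrophil-like cluster, with 1361 Smad3-WT and 76 Smad3-KO cells, gave ratios of 1.32 (1.26 to 1.38) for S100a8 and 1.63 (1.57 to 1.69) for S100a9. At that resolution the cluster led by Camp, Ngp and Ltf held 5 Smad3-WT and 106 Smad3-KO cells, against 0 and 58 in cluster 9. Its Smad3-KO cells had 122930 for S100a8. Within cluster 1 both genes were therefore higher in Smad3-KO cells, and the class average pools 3 clusters of unlike level. The part of cells with precursor markers in the ratios of cluster 1 was not tested. Depth in cluster 1 was similar, with medians of 653.5 UMIs over the 164 Smad3-KO cells and 747 UMIs over the Smad3-WT cells.

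**Figure D1:**
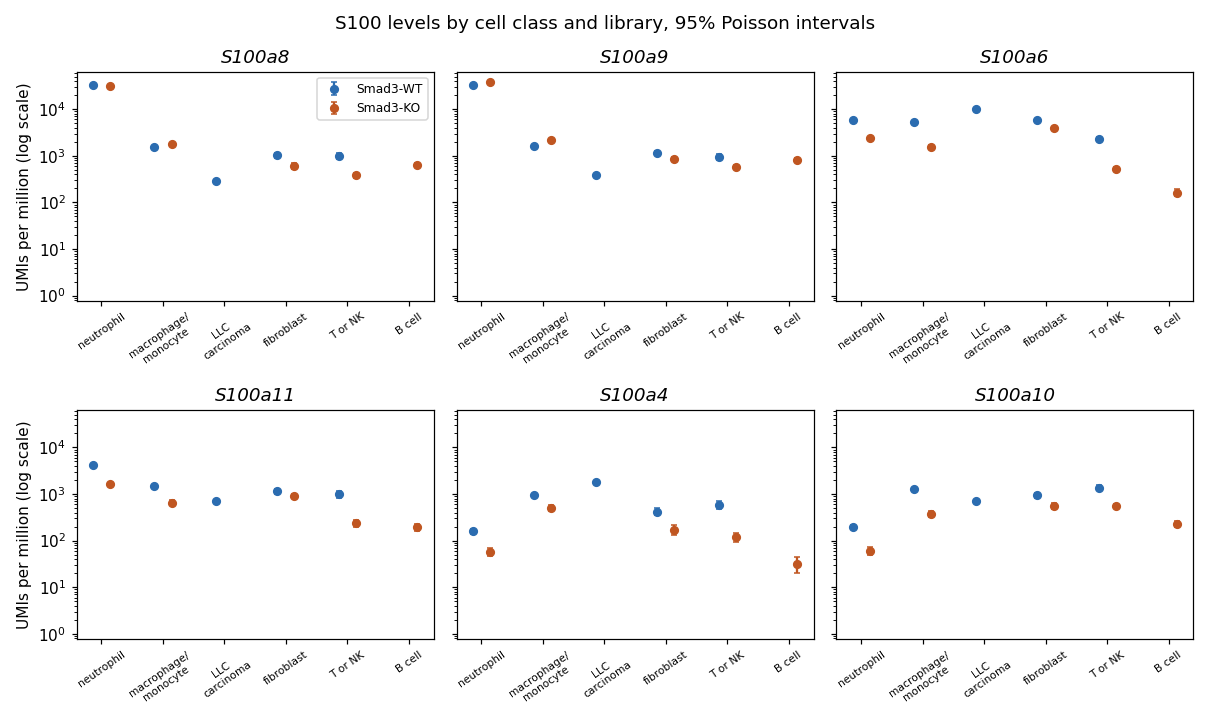
Level of each member in CPM (vertical log axis) in 6 cell classes (horizontal axis), with points for Smad3-WT (blue) and Smad3-KO (orange) and 95% Poisson bars. Classes with fewer than 40 cells in a library are not drawn; S100a8 and S100a9 stand at 31985 or more in neutrophil-like cells of both libraries and at 2198 or less elsewhere, whereas S100a6 is highest in carcinoma-like cells at 10221.

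Single cells spread widely around these averages. The share of a cell's UMIs that came from S100a8 and S100a9 ran from 0% to 42.6% in Smad3-WT neutrophil-like cells, with a median of 5.52% and the middle 50% of cells between 2.33% and 9.98%. In the Smad3-KO library it ran from 0% to 47.9%, with a median of 4.33% and the middle 50% between 1.35% and 8.83%. The upper tail was longer in Smad3-KO cells, where the 95th percentile was 24.6% against 17.7%. By cluster, the Smad3-KO medians were 3.60% in cluster 3, 10.7% in cluster 1 and 29.5% in cluster 9, and the Smad3-WT median in cluster 1 was 5.55%. Neutrophil-like cells with no UMI of either gene numbered 56 of 1865 in Smad3-WT and 67 of 1249 in Smad3-KO.

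**Figure D2:**
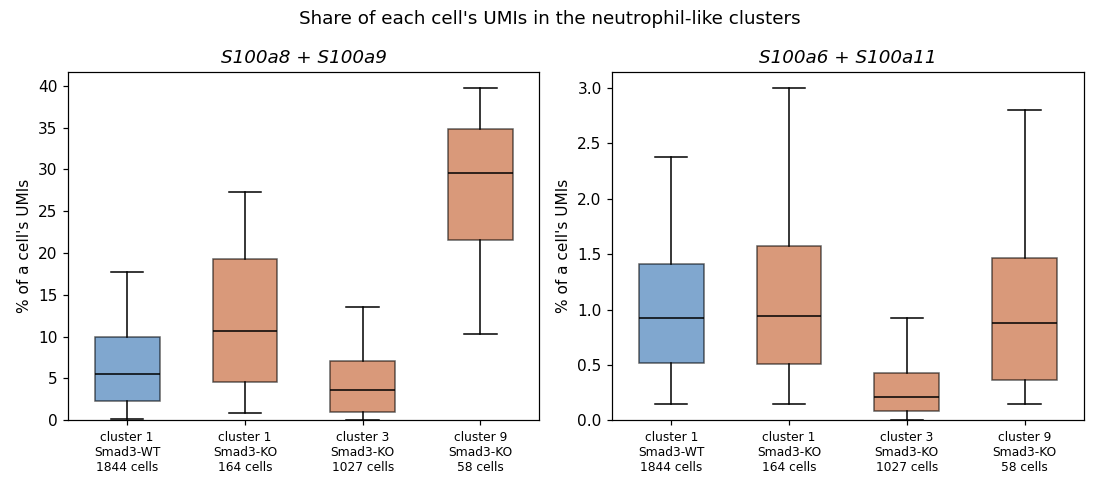
Share of each cell's UMIs (percent, vertical axes) from S100a8 and S100a9 (left) and from S100a6 and S100a11 (right) in the neutrophil-like clusters with over 50 cells of a library (horizontal axes); boxes span the middle 50% of cells, lines mark medians and whiskers the 5th and 95th percentiles. The precursor-led cluster 9 has the highest calprotectin share, with a median of 29.5%, and cluster 3 the lowest share of S100a6 and S100a11, with a median of 0.207%.

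Every cell was also thinned to 500 UMIs, with 0 cells too shallow, so that the share of cells with a UMI could be set side by side at equal depth. S100a8 was then found in 93.6% and 87.3% of the neutrophil-like cells of the Smad3-WT and Smad3-KO libraries, or 94.7% and 91.5% before thinning at median depths of 747 and 1059 UMIs. For comparison, S100a8 was found in 5.16% of thinned Smad3-KO B cell-like cells, which should lack it, or 10.7% before thinning at a median of 1216.5 UMIs. For S100a9 the thinned shares were 91.4% and 88.7%, a lower share where its level in CPM was higher, so that no order is read from these shares.

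In other classes with 50 cells or more of a library, S100a8 and S100a9 lay within or below the range of the neutrophil markers found in the same cells. The level of each gene in a class was divided by its level in the neutrophil-like cells of the same library, and the same was done for 11 neutrophil markers such as Csf3r, Cxcr2 and Il1r2. In Smad3-KO B cell-like cells, S100a8 stood at 2.02% and S100a9 at 2.19% of the neutrophil-like level, beside a median of 2.09% for the 11 markers. In Smad3-WT carcinoma-like cells the values were 0.902% and 1.16% beside 1.82%. In macrophage or monocyte-like cells they were 4.75% and 4.92% beside 6.89% in the Smad3-WT library, and 5.48% and 5.88% beside 7.71% in the Smad3-KO library. At least 5 of the 11 markers stood at or above S100a8 and S100a9 in each of the 7 class and library combinations with 50 cells or more. The UMIs of this pair in these combinations were therefore not told apart from background. Smaller sets, such as dendritic-like cells, were not compared in this way. The top of the marker range in Smad3-WT macrophage or monocyte-like cells, 26.4%, was set by Clec4d. Levels also differed within these cells, since at resolution 1 the Smad3-WT cells of a cluster led by Vcan, Ms4a4a and Ppbp had 2452 for S100a8 and those of a cluster led by Ccl8, Cbr2 and Folr2 had 843. In Smad3-WT carcinoma-like cells there were 1.31 S100a9 UMIs per S100a8 UMI (1.22 to 1.42), beside 1.02 in neutrophil-like cells. Within the Smad3-KO library the number of S100a9 UMIs per S100a8 UMI in the other classes ran from 1.25 (1.14 to 1.38) in macrophage or monocyte-like to 1.49 (1.27 to 1.76) in T or NK-like cells, beside 1.17 in neutrophil-like cells.

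**Figure D3:**
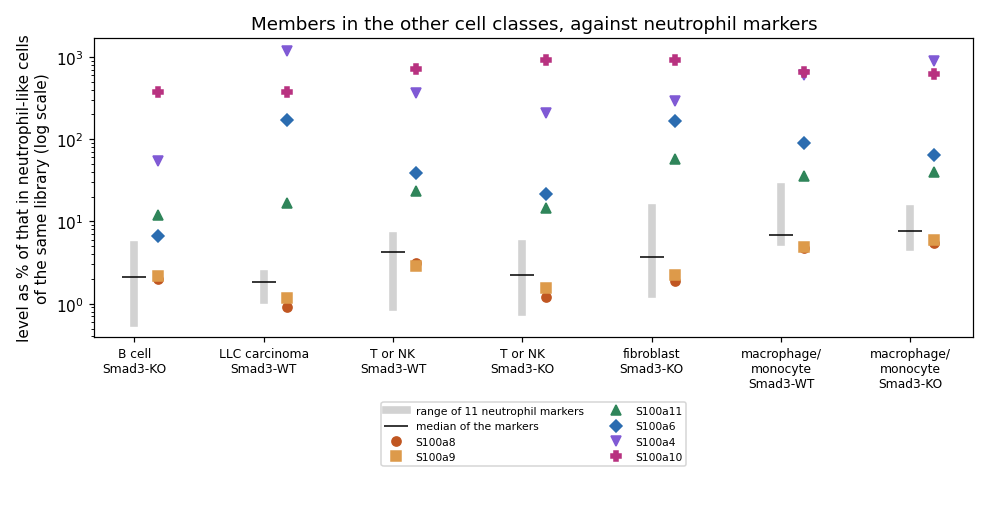
Level in each other class as a percent of the level in neutrophil-like cells of the same library (vertical log axis) for the 6 members (colored symbols) and 11 neutrophil markers (gray bar, range; black line, median), by class and library (horizontal axis). S100a8 and S100a9 lie within or below the range of the markers, while S100a6, S100a11, S100a4 and S100a10 lie above it in all 7 combinations.

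S100a6 and S100a11 behaved differently, being detected above the neutrophil background in other classes as well as in neutrophil-like cells. The level of S100a6 in the Smad3-WT library was 10221 CPM in LLC carcinoma-like, 5976 in neutrophil-like, 5957 in fibroblast-like, 5377 in macrophage or monocyte-like and 2331 in T or NK-like cells. The values of neutrophil-like cells (5863 to 6090) and of the 46 fibroblast-like cells (5695 to 6229) overlapped. In the Smad3-KO library the level was 3983 in fibroblast-like, 2401 in neutrophil-like, 1552 in macrophage or monocyte-like, 516 in T or NK-like and 160 in B cell-like cells. The last was nearest to that background, at 6.68% (5.58 to 7.93) of the neutrophil-like level beside 5.19% for the highest marker. S100a6 was thus lower in the Smad3-KO library in each of the 4 classes with over 40 cells in both libraries. S100a11 was highest in neutrophil-like cells, at 4241 in Smad3-WT and 1612 in Smad3-KO, against 1519 and 648 in macrophage or monocyte-like cells. Its lowest level was 191 in B cell-like cells of the Smad3-KO library. The number of S100a6 UMIs per S100a11 UMI was 1.41 in Smad3-WT and 1.49 in Smad3-KO neutrophil-like cells, but 14.2 in carcinoma-like cells, so the classes differed in the balance of these genes.

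In neutrophil-like cells, the KO/WT ratio was 0.402 (0.387 to 0.417) for S100a6 and 0.380 (0.364 to 0.397) for S100a11. In cluster 1 alone the ratio was nearer to 1 for S100a6 and above 1 for S100a11. There S100a6 was 5997 in Smad3-WT against 5539 in Smad3-KO, with a KO/WT ratio of 0.924 (0.855 to 0.997), and S100a11 was 4257 and 5156, a KO/WT ratio of 1.21 (1.12 to 1.31). At resolution 1 the ratios in the largest neutrophil-like cluster were 0.708 (0.618 to 0.808) and 1.24 (1.10 to 1.39). Cluster 3, which held 1027 of the 1249 Smad3-KO neutrophil-like cells, had 1801 for S100a6 and 1230 for S100a11. The 21 Smad3-WT cells of cluster 3, with 55 and 38 UMIs of these genes, had 3571 and 2467. The precursor-led cluster 9 had 5555 for S100a6 and 2262 for S100a11. Among the Smad3-KO cells of clusters 1, 3 and 9, cluster 3 thus had the lowest level of both genes, and cluster and library cannot be told apart there. S100a6, unlike S100a11, was also lower in Smad3-KO within cluster 1. Markers of other lineages differed between the libraries as well. The Smad3-KO neutrophil-like class held 1135 UMIs of Igkc, 268 of Cd79a and 42 of Siglech, where Smad3-WT had 0 of each. Ighm, also a B cell marker, was present on both sides, with 277 UMIs for Smad3-KO beside 121 for Smad3-WT. Other markers leaned to Smad3-WT, namely Pf4 (119 UMIs against 43), C1qb (53 against 17), Rhox5 (23 against 0) and Krt8 (18 against 0). Apoe leaned to Smad3-KO, with 522 against 150. Cells with a UMI of C1qa, C1qb, C1qc or Apoe numbered 180 of 1865 Smad3-WT and 73 of 1249 Smad3-KO cells. At resolution 1, 190 Smad3-KO cells formed a cluster led by Siglech, Cox6a2 and Igkc, with S100a8 at 7005 and S100a6 at 1334. By the rule for names, 6 B cell markers named it B cell. Its leading gene Siglech is on the list of dendritic markers, so this name is uncertain. The neutrophil-like class then had 1072 Smad3-KO cells, of which 881 lay in the cluster led by Il1a, Tnfaip3 and Lcn2. These 881 cells had 23834 for S100a8, 32773 for S100a9, 1976 for S100a6, 1493 for S100a11 and 3.87 for S100a4. The part of the cells with markers of other lineages in the results of the class was not tested.

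In the Smad3-WT library, S100a4 and S100a10 had nearly all of their UMIs in other cells. Of the S100a4 UMIs of the Smad3-WT library, 53.7% were in LLC carcinoma-like, 42.2% in macrophage or monocyte-like and 2.14% in neutrophil-like cells, although the last were the most numerous. Of the S100a10 UMIs, 67.1% were in macrophage or monocyte-like, 24.8% in carcinoma-like and 3.07% in neutrophil-like cells. S100a8, by contrast, had 84.0% of its UMIs in neutrophil-like cells. In the Smad3-KO library, 17.0% of the S100a4 and 9.73% of the S100a10 UMIs were in neutrophil-like cells. There T or NK-like cells held 34.2% and fibroblast-like cells 19.0% of the S100a10 UMIs. At resolution 1, the 881 Smad3-KO cells led by Il1a, Tnfaip3 and Lcn2 held 4 S100a4 and 19 S100a10 UMIs. The 106 led by Camp, Ngp and Ltf held 11 and 10, and the 76 of the largest neutrophil-like cluster 0 and 1. The 190 led by Siglech, Cox6a2 and Igkc, whose name is uncertain, held 93 and 86. The part of such cells in the neutrophil-like values of the Smad3-KO library was not tested. The level of S100a4 in neutrophil-like cells was 160 in Smad3-WT and 57.4 in Smad3-KO, from 285 and 98 UMIs, and that of S100a10 was 193 and 60.3, from 345 and 103 UMIs. These levels were 16.9% and 11.4% for S100a4, and 15.2% and 16.2% for S100a10, of the levels in macrophage or monocyte-like cells of the same library. Markers of macrophages and monocytes stood in neutrophil-like cells at between 1.94% and 67.4% in Smad3-WT, with a median of 4.83% over 13 markers, and between 2.44% and 68.7% in Smad3-KO, with a median of 8.98% over 10. The top of the range was set by Ly6c2 in both libraries, and both genes stood above the medians. In Smad3-WT 3 markers stood at or above S100a4 and 4 at or above S100a10. In Smad3-KO 2 markers stood at or above each gene. With markers on either side of both genes, their UMIs in neutrophil-like cells are not told apart from background. Their ratios there, 0.360 for S100a4 and 0.312 for S100a10, are given as values of the libraries and are not read as a difference between neutrophils. They also moved with how the class was drawn, from 0.0502 to 0.524 for S100a4 and from 0.0804 to 0.383 for S100a10 over the alternatives, the lowest being 30 principal components for S100a4 and cluster 1 alone for S100a10. In macrophage or monocyte-like cells S100a4 was 946 in Smad3-WT and 506 in Smad3-KO, and S100a10 was 1269 and 373.

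Over all cells that passed the filter, the calprotectin genes were higher and the other 4 members lower in the Smad3-KO library. The level of S100a8 was 5647 in Smad3-WT against 13673 in Smad3-KO, with a KO/WT ratio of 2.42 (2.39 to 2.45), and S100a9 was 5809 and 16040, a KO/WT ratio of 2.76 (2.73 to 2.79). S100a6 was 6951 and 1669, a KO/WT ratio of 0.240, S100a4 was 1096 and 139, a KO/WT ratio of 0.127, S100a10 was 924 and 255, a KO/WT ratio of 0.277, and S100a11 was 1648 and 925, a KO/WT ratio of 0.561. Neutrophil-like cells supplied 14.7% of all UMIs of the Smad3-WT and 41.2% of those of the Smad3-KO library, and carcinoma-like cells 31.8% and 0.596%. When each cell counted equally, as a mean of the shares of cells, the ratio of S100a8 and S100a9 together was 0.950 in place of 2.59 (2.57 to 2.61). Without the quality filter, whose limit of 20000 UMIs removed 382 Smad3-WT and 0 Smad3-KO cells, it was 4.81. The values over all cells therefore move with how cells are weighted and filtered, and they describe the libraries, not the neutrophils in them. The part of the mix of cells in these values was not tested.

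A member was counted as higher or lower when its ratio was at least 2-fold, among genes with at least 200 UMIs in both libraries together, a size that all 6 members passed in each of the 3 comparisons. Over all cells, 2 of 6 members, S100a8 and S100a9, were higher in Smad3-KO, against 10.6% of 7353 genes, and 3 of 6 were lower, against 12.5%. In neutrophil-like cells, 0 of 6 were higher, against 9.8% of 1928 genes, and 4 of 6, S100a4, S100a6, S100a10 and S100a11, were lower, against 11.6%. Of these, S100a4 and S100a10 were not told apart from background, and in cluster 1 alone 1 of 6, S100a9, was higher, against 4.32% of 1204 genes, and 2 of 6, S100a4 and S100a10 with 2 Smad3-KO UMIs each, were lower, against 13.6%. S100a9 was past 2-fold at 2.05, but not in the largest neutrophil-like cluster at resolution 1. In macrophage or monocyte-like cells, 0 of 6 were higher, against 4.5% of 3909 genes, and 3 of 6, S100a6, S100a10 and S100a11, were lower, against 9.24%. The median ratio of the 6 members was 0.419 over all cells, 0.391 in neutrophil-like and 0.481 in macrophage or monocyte-like cells, beside 0.924, 0.879 and 0.957 for all genes tested. The median gene thus lay 0.11, 0.19 and 0.06 below 0 on the log2 scale. Median-of-ratios scaling, which sets the typical gene to equal levels, moved the share of higher genes among those called from 46.1% to 56.1% over all cells and from 45.9% to 62.2% in neutrophil-like cells, and the ratio of the sum of S100a4, S100a6, S100a10 and S100a11 in neutrophil-like cells was then 0.445 in place of 0.391.

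**Figure D4:**
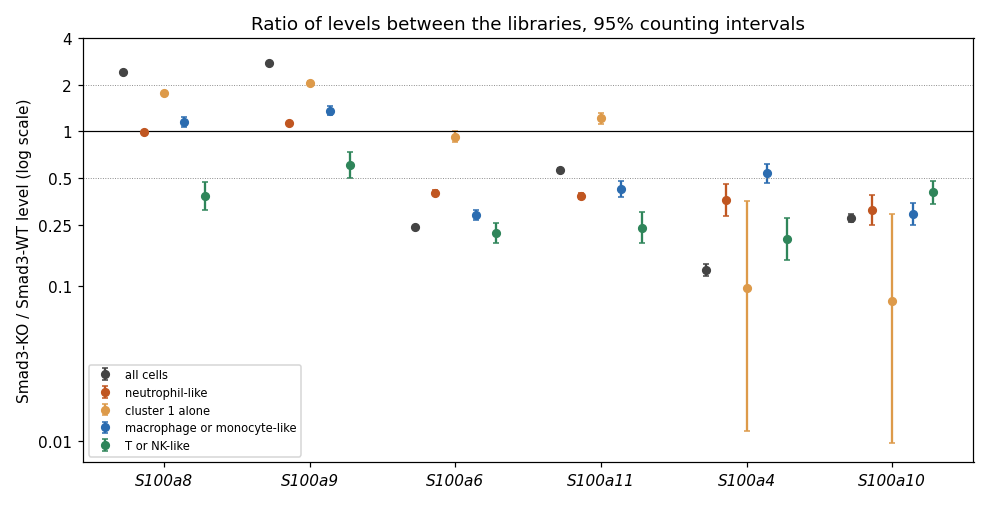
Ratio of the Smad3-KO to the Smad3-WT level (vertical log axis, 1 marked by a solid and 0.5 and 2 by dotted lines) for the 6 members (horizontal axis) in 5 sets of cells (colors), with 95% counting intervals. S100a6 lies at 0.402 in neutrophil-like cells and at 0.924 in cluster 1 alone, and the wide bars of S100a4 and S100a10 in cluster 1 rest on 2 UMIs each in the Smad3-KO library.

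In macrophage or monocyte-like cells, S100a6 lay on the same side as in neutrophil-like cells, with 5377 in Smad3-WT and 1552 in Smad3-KO, a KO/WT ratio of 0.289 (0.267 to 0.312). S100a11 had a ratio of 0.426 (0.377 to 0.481), S100a10 of 0.294 (0.2496 to 0.3436) and S100a4 of 0.535 (0.465 to 0.612). Depth differed here, since the median was 3688 UMIs over 1216 Smad3-WT cells and 2812 UMIs over 134 Smad3-KO cells. The makeup of the class differed as well. Pf4 had a KO/WT ratio of 0.105 and C1qb, a complement gene of macrophages, of 0.277, whereas the dendritic genes Flt3, Xcr1 and Clec9a had 21.6, 50.8 and 19.8, from 28, 33 and 40 Smad3-KO UMIs. Neither list of markers moved in 1 direction. Among macrophage markers, Apoe had a ratio of 2.71, Ms4a7 of 1.92 and Adgre1 of 1.64. The dendritic marker Fscn1 had 0.408, from 5 Smad3-KO UMIs. At resolution 1, 961 Smad3-WT and 49 Smad3-KO cells stayed in clusters named macrophage or monocyte, and 293 and 88 fell in an unnamed cluster led by H2-Eb1, Mgl2 and H2-Ab1. In that cluster the ratio was 0.316 for S100a6, 0.290 for S100a11, 0.282 for S100a10 and 0.468 for S100a4. The part of this makeup in the ratios of the class was not tested. In T or NK-like cells, 53 in Smad3-WT and 416 in Smad3-KO, the ratios were 0.221 for S100a6, 0.239 for S100a11, 0.403 for S100a10 and 0.201 for S100a4. The ratio of S100a4 rests on 172 UMIs in both libraries together, fewer than the 200 asked of genes above. Depth differed here too, with medians of 2033 and 1307 UMIs. The part of the mix of T and NK cells in these ratios was not tested. S100a6 and S100a11 in T or NK-like cells stood at 43.4% and 64.6% of their macrophage or monocyte-like level in Smad3-WT, and at 33.2% and 36.1% in Smad3-KO. Of 13 macrophage markers in Smad3-WT and 10 in Smad3-KO, only Ly6c2 stood at or above these values, at 240% and 104%. The medians of the markers were 2.99% and 9.60%. Since Ly6c2 exceeded its own macrophage or monocyte-like level there, it sets no ceiling for background, and the part of background in these UMIs was not settled. Ly6c2 alone also stood above S100a4 in both libraries and above S100a10 in Smad3-WT. The share of all UMIs that came from carcinoma-like cells was 31.8% in Smad3-WT and 0.596% in Smad3-KO, and from macrophage or monocyte-like cells 48.9% and 10.3%, so that the free RNA of both could differ between the libraries, and its part in these ratios was not tested.

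The authors' averages for 13 clusters of the unfiltered cells, in UMIs per cell scaled to a total of 1311, were read next. They come from the same cells and carry no library, so they show the spread between groups of cells and are not independent support. In the 5 clusters that neutrophil or precursor markers name, numbers 1, 3, 4, 6 and 10, the average of S100a8 ran from 27.2 to 67.9 and that of S100a9 from 37.6 to 66.1. In the other 8 clusters both stayed at or below 6.75. The pair made up 9.94% of the average cell of cluster 6 and 0.0174% of that of carcinoma-like cluster 11. The precursor cluster 10, with the highest Camp average, had 0.851 S100a9 per S100a8, and cluster 3, with the highest Lcn2 average, had 1.38. S100a6 was 10.5 in cluster 2, in which carcinoma and fibroblast markers were equally many, 10.4 in neutrophil cluster 6, 9.64 in carcinoma-like cluster 11, 2.22 in neutrophil cluster 3 and 0.189 in B cell-like cluster 8. S100a4 was 0.00335 in neutrophil cluster 3 and at most 0.0765 in clusters 1, 4 and 6, against 0.320 in precursor cluster 10 and 1.80 in cluster 2.

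**Figure D5:**
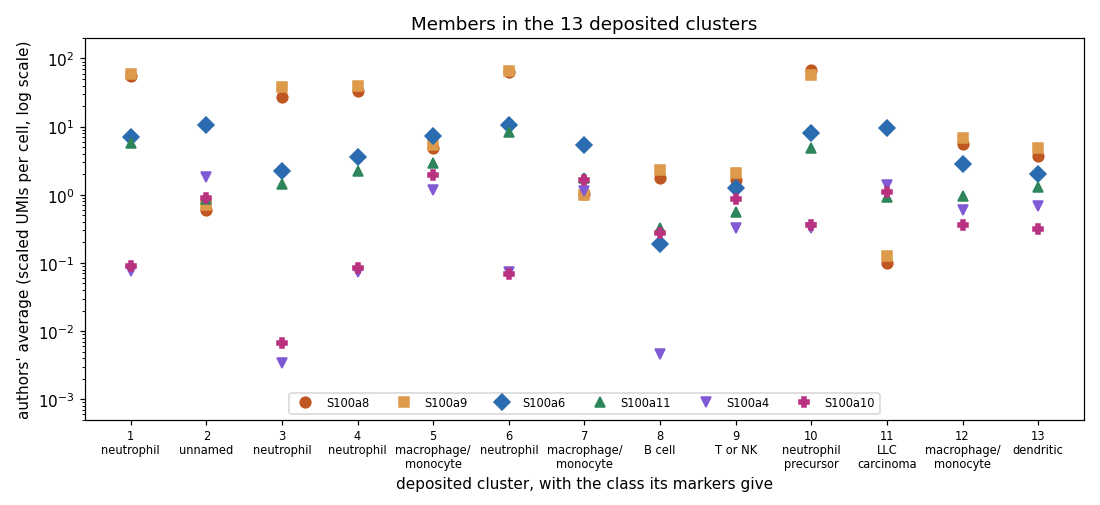
Authors' average of each member (vertical log axis, UMIs per cell scaled to 1311) in the 13 deposited clusters (horizontal axis, with the class that marker genes give). S100a8 and S100a9 are at 27.2 or more in clusters 1, 3, 4, 6 and 10 and at or below 6.75 elsewhere, whereas S100a6 is at 7.12 in neutrophil cluster 1, 7.17 in macrophage cluster 5 and 9.64 in carcinoma cluster 11.

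Across the 9 class and library combinations with at least 50 cells, each member was set beside 7353 genes by the correlation of log2(CPM + 10). The points share libraries and depth, and the values are descriptions. The gene most like S100a8 was S100a9 (r = 0.997), followed by Tlr6 (0.995) and Csrnp1 (0.994), and Tet2 and Fpr1 (both 0.993) followed S100a8 for S100a9. S100a6 was most like Txn1 (0.976), Tubb6 (0.932) and Rhob (0.924). S100a11 was most like Nfil3 (0.989), Gm14005 (0.980) and Ier3 (0.970). S100a4 was most like Dctn3 (0.955), and S100a10 was most like Ap2a1 (0.947). Between members, S100a8 and S100a10 ran opposite (r = -0.69), S100a6 and S100a11 ran together (0.781), and S100a4 with S100a10 had 0.723. S100a11 ran with S100a8 (0.746) and S100a9 (0.719) nearly as closely. By likeness to S100a8, S100a10 ranked only 5377th of the 7353 genes, so that many other genes ran more opposite to it.

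Of 10 other S100 genes looked up, 3 passed 200 UMIs over all cells and 1, S100a13, did so in neutrophil-like cells. S100a13, known for the release of proteins that lack a signal peptide, had 99.7 CPM in Smad3-WT against 58.6 in Smad3-KO, with a KO/WT ratio of 0.588 (0.455 to 0.755). S100a3, S100a14, S100b, S100g and S100z had 0 UMIs in neutrophil-like cells, a count that allows up to 1.68 CPM in Smad3-WT and 1.76 CPM in Smad3-KO. Of 7 protein partners, 6 passed 200 UMIs in neutrophil-like cells, 1 was at least 2-fold higher and 1 lower in Smad3-KO, with a median ratio of 0.813. Of all 1928 genes that passed there, 9.8% were higher and 11.6% lower, so these counts are not read as a result about the partners. Anxa1, the annexin bound by S100A11, was 140 in Smad3-WT and 665 in Smad3-KO, a KO/WT ratio of 4.75 (4.14 to 5.47). S100a11 itself had 1.21 in cluster 1 alone and 0.380 over the whole class, the latter in the direction opposite to Anxa1 there. Anxa2, the annexin that S100A10 binds, was 937 and 509, a KO/WT ratio of 0.543, and Ahnak, a scaffold held by that complex, was 93.5 and 41.0, a KO/WT ratio of 0.438. Myh9, the myosin heavy chain that S100A4 binds, was 174 and 165.

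Of 8 receptors and binding partners of calprotectin, 4 passed 200 UMIs in neutrophil-like cells, of which 0 were at least 2-fold higher and 1 was lower, with a median ratio of 0.661. Beside these counts, 9.8% of all 1928 genes that passed there were higher and 11.6% lower. Tlr4, the toll-like receptor for lipopolysaccharide and calprotectin, was 338 in Smad3-WT and 77.9 in Smad3-KO, a KO/WT ratio of 0.231 (0.190 to 0.279). Bsg, which encodes basigin, was 369 and 721, a KO/WT ratio of 1.95 (1.78 to 2.15). Ager, which encodes the receptor RAGE, had 11 and 10 UMIs, too few for a comparison. Of 5 myeloid transcription factors, 3 passed, and 0 were past 2-fold in either direction, beside the same shares of all genes. Cebpb was 5682 in Smad3-WT and 4396 in Smad3-KO, a KO/WT ratio of 0.774, Cebpd had a ratio of 0.708, and Spi1, which encodes PU.1, had a ratio of 0.680. These values cover the whole class, in which cluster 1 and cluster 3 stand for different libraries.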

How the data were processed

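The authors deposited raw UMI counts per gene and barcode, made with Cell Ranger 3.0.2 per the file headers on mm10 per the labels, with both libraries in 1 matrix. The authors also deposited a signal per gene, averages for each library and for 13 clusters that add up to 1311, the median UMI count over barcodes. The authors' fold changes and p-values were not used. The quality filter of the methods was applied (200 genes or more, mitochondrial share below 10%, UMIs between 500 and 20000). No doublets were removed, and neutrophil-like cells with a UMI of C1qa, C1qb, C1qc or Apoe, called mixed barcodes, were left out as an alternative.

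Counts without S100 genes were scaled to 10000 per cell, logged and clustered with scanpy 1.11.5 and igraph 0.11.9 (2000 variable genes, 100 principal components, 15 neighbours, Louvain, seed 1) at resolution 0.2, the first on a grid from 0.1 to 3 with 8 clusters or more. A name needed 3 markers found in 10% of the cells of a cluster at 2 times their level elsewhere, and clusters led by precursor markers joined the neutrophil-like class. Intervals are Poisson for levels, Clopper-Pearson for shares and, for ratios, from the split of the UMIs, with Python 3.11.15 and scipy 1.17.1. Those of ratios were run on simulated Poisson counts. Such counts leave out the spread between cells, so the run checks the calculation alone. A count of 0 allows up to 3 counts. Genes were named as members, from the lists of other S100 genes, partners, receptors, transcription factors and cell markers, as the 3 leading genes of a cluster or as the 3 most like a member, and Smad3, Ly6g and Csf3 were added after their values were seen. Members and lists were chosen with earlier results of these data known. Alternatives covered the filter, averaging over cells, thinning to 500 UMIs, median-of-ratios scaling, the genes in the total, resolution 1, 30 principal components, S100 genes kept, precursor clusters, mixed barcodes and, chosen after seeing the data, barcodes of both libraries and cluster 1 alone.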

Additional observations from a re-analysis of the deposited data

Results flagged for a closer look

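For 3 members, the ratio of Smad3-KO to Smad3-WT lay on opposite sides of 1 in sets of cells with at least 50 cells of both libraries, with each interval clear of 1. None of these differences was tested, since each set has 1 library per genotype. S100a8 had ratios of 1.75 in cluster 1 and 1.14 in the macrophage or monocyte-like class, against 0.382 in T or NK-like cells. S100a9 had 1.36 in the macrophage or monocyte-like class, 1.14 in neutrophil-like cells and 2.05 in cluster 1, against 0.608 in T or NK-like cells. For both, the values outside neutrophil-like cells lay within or below the range of the neutrophil markers found in the same cells. S100a11 had 1.21 in cluster 1, against 0.239 in T or NK-like, 0.426 in macrophage or monocyte-like and 0.380 in all neutrophil-like cells. The part of macrophage background in its T or NK-like value was not settled.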

How the results depend on the processing

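No paired analysis was possible because each genotype has 1 library, and no replicate could be left out for the same reason. Of 312 values recomputed under 16 alternatives, 165 stayed within the counting interval or, for counts, within 1.5 times, and 135 left it. The other 12 fell on the opposite side of 1 from a ratio whose interval excluded 1. Of these 12, 6 were ratios of the sums of members over all cells or in neutrophil-like cells. S100a8 in neutrophil-like cells, 0.989 with an interval that holds 1, ran from 0.681 to 1.75 over the alternatives. Over all cells, the KO/WT ratio of S100a8 and S100a9 together, 2.59, was 4.81 with no filter, 4.85 with the filter the methods give for MetaCell, 2.81 with median-of-ratios scaling, 2.49 without mitochondrial and ribosomal protein genes in the total, 2.62 without the 6 members in the total, and 2.72 without barcodes of both libraries. As a mean over cells it was 0.950, S100a8 alone was 0.854, and 0 in place of 2 members were at least 2-fold higher. The ratio of the other 4 members together, 0.281, was 0.299 with no filter, 0.298 with the MetaCell filter and as a mean over cells, 0.305 with median-of-ratios scaling and 0.270 without mitochondrial and ribosomal protein genes. In neutrophil-like cells, the ratio of S100a8 and S100a9, 1.06, was 0.988 with no filter and new clusters, 0.908 with 30 principal components, 0.998 with cells thinned to 500 UMIs and 0.791 without precursor clusters, where S100a9 alone was 0.899. It was 1.27 at resolution 1, 1.02 with S100 genes kept in the clustering, 1.002 as a mean over cells, 1.21 with median-of-ratios scaling, 1.08 without mitochondrial and ribosomal protein genes, 1.10 without mixed barcodes and 1.90 in cluster 1 alone. The ratio of the other 4 members, 0.391, was 0.442 at resolution 1, 0.402 with 30 principal components, 0.424 as a mean over cells, 0.419 after thinning, 0.445 with median-of-ratios scaling and 0.357 without precursor clusters. In cluster 1 alone it was 1.01, S100a11 was 1.21, and 1 member was at least 2-fold higher and 2, with 2 Smad3-KO UMIs each, were lower, in place of 0 and 4. The share of UMIs from S100a8 and S100a9 in Smad3-WT, 6.53%, was 6.80% with no filter, 6.77% at resolution 1, 6.96% with 30 principal components, 6.72% without mixed barcodes and 5.52% as a median over cells. In Smad3-KO, 6.94% became 6.72%, 8.58%, 6.32%, 7.37% and 4.33% in the same order, and 5.17% without precursor clusters. In macrophage or monocyte-like cells, 30 principal components gave 0.426 for S100a8, 0.528 for S100a9 and 0.479 for their sum. The cause of these shifts was not tested. Depth limits S100a4 and S100a10 most, with 2 UMIs each in the Smad3-KO cells of cluster 1.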

Other observations

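Dendritic-like cells, led by Ccl22, Ccl5 and Apol7c and with the markers Ccr7 and Fscn1, were too few for a comparison, with 22 Smad3-WT and 39 Smad3-KO cells. S100a8 was 3346 and S100a9 3209 CPM in the Smad3-WT cells, and 2660 and 2971 in the Smad3-KO cells. S100a4 was 401 in Smad3-WT and 755 in Smad3-KO dendritic-like cells, from 32 and 92 UMIs. At resolution 1, cluster 6, led by Hcar2, Gm43661 and Cxcl3, with 420 Smad3-WT and 9 Smad3-KO cells, had 3982 for S100a6 and 2386 for S100a11 in its Smad3-WT cells, against 6459 and 4905 in the 1361 Smad3-WT cells of the largest neutrophil-like cluster, while S100a8 was 32193 and 33940. The members S100a6 and S100a11 thus differed between clusters within the Smad3-WT library as well.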
